A study of Mus musculus with 30 samples.

Results

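Stressed and unstressed female mice were compared across both main classes of medium spiny neuron of the nucleus accumbens at once. All 20 libraries of stressed mice, 10 of D1 and 10 of D2 neurons, were set against all 10 Control libraries, 5 of each class, with the class as a factor in the model. All 30 libraries of the series enter this comparison. D1 libraries came from D1-Cre-RT mice and D2 libraries from A2A-Cre-RT mice. In these mice Cre, driven from a dopamine D1 or adenosine A2A receptor gene, switches on a tagged ribosomal protein (RiboTag, here RT). Control libraries carry the same tag and Cre. The stressed mice had undergone chronic witness defeat stress (CWDS), in which a mouse watches another being defeated, and were sorted by social interaction into Resilient and Susceptible, 5 libraries each per class. Each library pooled 4 mice. The accumbens was punched 24 h after the interaction test, and RNA bound to tagged polyribosomes entered the libraries. Ages were not given in the labels used here. Because the RNA is a bulk pulldown, fewer cells with a message and less of it per cell cannot be told apart.

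D1 neurons express the dopamine D1 receptor, which raises cAMP, and D2 neurons express the D2 receptor, which lowers it, together with the adenosine A2A receptor. Both classes are GABAergic output neurons of the striatum, where they take part in reward and aversion. In both, synaptic activity switches on immediate early genes, a set whose promoters are ready to respond within minutes. Transcription factors of the FOS, EGR and NR4A families and synaptic effectors such as Arc belong to it.

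The gene totals were 40504633 to 65882152 counts in Control libraries and 28996168 to 65834869 in stressed ones. Among the stressed libraries, 4 stand apart or were left out in alternatives. D1 Susceptible replicate 1 had 54.9% of its gene counts on the single feature Gm42418, and D2 Susceptible replicates 1 and 2 had the fewest genes detected, 15822 and 16525 against a median of 21135. D2 Resilient replicate 5 was left out with them because earlier results put its class markers apart. Ddx3y, a Y-linked gene, had 267 and 56 counts in D2 Susceptible replicates 1 and 2, although all mice were female by label. Of other Y-linked genes, Uty had 144 and 0 counts there, Eif2s3y 0 and 0, and Kdm5d 0 and 1. Ddx3y had 0 to 13 counts in the other libraries. Replicates differed in every pair by more than counting error allows (a chi-square of at least 13 per degree of freedom). Without molecular identifiers, a limit derived from a count of 0 reflects counting error alone. The summed CPM (counts per 1000000, TMM-scaled) of the D2 markers was 1120 to 2771 in the D1 libraries and 4867 to 12800 in the D2 libraries. The D1 markers overlapped, with 1712 to 2578 CPM in the D1 libraries and 274.6 to 1837 in the D2 libraries. Drd1, the D1 receptor gene, had 414 CPM in D2 Resilient replicate 5 and 247 in D2 Control replicate 5, and 377 to 616 in the D1 libraries. In counts, D2 Control replicate 5 had 17257 of Drd1, against 3139 to 8085 in the other D2 Control libraries. It was kept in the fit that left out the 4 stressed libraries.

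Few genes differed alike in both classes. Of 19368 genes tested, 1 (0.00516%) passed the adjusted p of 0.05 in the stress term over both classes (edgeR quasi-likelihood test, Benjamini-Hochberg), and it was lower in stress. This gene was AC123659.1, a processed pseudogene. Every other gene had an adjusted p that rounds to 1. An unadjusted p under 0.05 was reached by 548 genes (2.83%), 230 higher (1.19%) and 318 lower (1.64%), fewer than the 968 that a threshold of 0.05 gives when nothing differs. No gene had all Control libraries on one side of all stressed ones (0%). DESeq2 also passed 1 gene, AC123659.1, and voom with quality weights (limma) passed 1, Fosl2.

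AC123659.1 (ENSMUSG00000117165) is annotated as a processed pseudogene, a copy of a spliced message put back into the genome. Reads of such a copy and of the gene it came from can be assigned to each other, so its counts are uncertain. The counts of AC123659.1 were 377, 2, 2, 302 and 0 in D1 Control replicates 1 to 5 and 2, 39, 485, 1 and 1 in D2 Control replicates 1 to 5. In the stressed libraries it had 0 to 4 counts, except for 22 in D1 Resilient replicate 2. So 4 of 10 Control libraries hold nearly all of its counts, and the other Control libraries overlap the stressed ones. The log2 difference was -5.61 (SE 0.907, edgeR adjusted p 0.0134), with -5.11 in D1 and -6.13 in D2. Its level in CPM ran from 0 to 8.82 in Control (median 0.0363) and from 0 to 0.426 in stressed libraries (median 0.0275), so the medians lie at the level of a few counts. The call was lost when D1 Control replicate 1 was left out (log2 -5.36, edgeR adjusted p 0.0662), when replicate 4 of that group was (log2 -5.40, adjusted p 0.0615) and when D2 Control replicate 3 was (log2 -4.26, adjusted p 0.706).

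**Figure D1:**
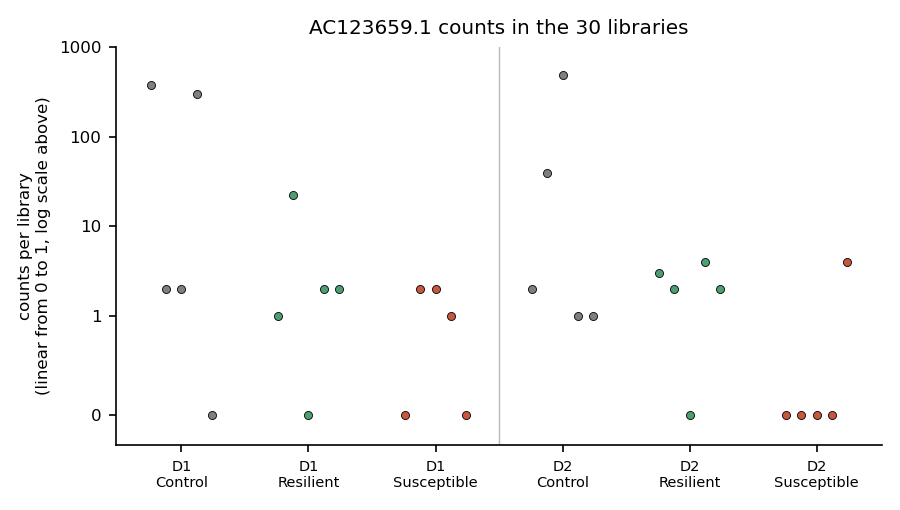
Counts of AC123659.1 in each library (y axis, linear from 0 to 1 and logarithmic above), by class and group on the x axis; each point is 1 library, with 5 in each group. In Control, 2 D1 libraries and 1 D2 library lie above 300 counts and another at 39, while the highest stressed library has 22.

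Tests within each class also passed few genes in edgeR, with counts that differed between the classes and between methods. In D1, edgeR passed 0 genes, with 344 (1.78%) at an unadjusted p under 0.05, higher for 0.79% of genes and lower for 0.986%. DESeq2 passed 0 in D1 as well, and voom passed 46, of which 9 were higher and 37 lower. In D2, edgeR passed 1 gene (0.00516%), Rpl7a-ps11, a ribosomal protein pseudogene, with a log2 difference of -4.42 (SE 0.719, adjusted p 0.023), with 1060 genes (5.47%) at an unadjusted p under 0.05, higher for 2.91% and lower for 2.56%. That gene had 6492 counts in D2 Control replicate 1 and 14 to 107 counts in each of the other libraries, and without D2 Control replicate 1 no gene passed in D2. The count was also 0 without any single D2 Susceptible library or D2 Resilient replicate 2, 3, 4 or 5, and 2 (with Slc9a4) without D1 Susceptible replicate 4 or D2 Control replicate 5. By DESeq2 it was 4 (Btc, Rpl17-ps8, Slc9a4 and Zfp445) and by voom 0. A gene that differed in 1 direction in each class on its own was not found, since edgeR, DESeq2 and voom all passed 0 genes (0%) for the larger of the D1 and D2 p-values. At an unadjusted p under 0.05 for that measure, edgeR gave 14 genes (0.0723%), 6 higher (0.031%) and 8 lower (0.0413%).

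Across all genes the D1 and D2 differences were nearly unrelated. The classes share no Control library, so each difference has its own libraries. The sign was the same in D1 and D2 for 9170 of 19368 genes (47.3%). Pearson's r across genes was 0.0401 and Spearman's rho -0.00375, and among the 9173 genes with a mean of at least 10 CPM r was -0.145. These are descriptions across genes, which are not independent replicates, and all genes of a class share the same libraries and depths. Among those 9173 genes, 27 (0.294%) had a log2 difference beyond 0.5 over both classes. One sign in all 4 stressed groups was seen for 3123 genes (16.1%).

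**Figure D2:**
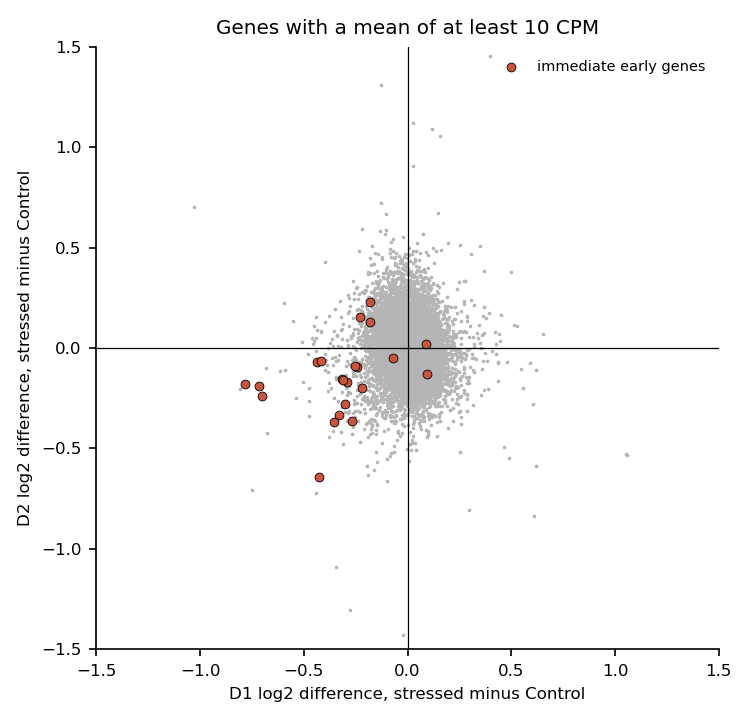
Log2 difference of stressed minus Control libraries in D1 (x axis) and in D2 (y axis) for the 9173 genes with a mean of at least 10 CPM, 1 point a gene, with 14 of them outside the axes. Immediate early genes are in red, and 17 of the 22 plotted lie below 0 in both classes.

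The immediate early genes lay lower in stressed libraries in both classes as a list, without any member passing the test. Of 28 listed genes 27 were tested, and 24 had a log2 difference below 0 (88.9%, against 51.3% of all genes). The median was -0.24 against -0.004 for all genes, with -0.29 in D1 and -0.16 in D2. Against its own class Control, it was -0.34 for Resilient and -0.27 for Susceptible libraries of D1, and -0.08 and -0.19 for those of D2. Both classes were lower for 20 of 27 members (74.1%, against 24.4% of all genes). An unadjusted p under 0.05 in the lower direction was reached by 16 members (59.3%) against 1.64% of all genes, and in the higher direction by 0. Over both classes edgeR and DESeq2 passed 0 members after adjustment and voom 1, Fosl2. Within D1, the genes of smallest p among the 46 that voom passed included Klf10, Btg2 and Dusp6, and the rest were not listed. The list was chosen with earlier results of these libraries known, and its genes move together from library to library, so these counts describe the list and are not independent evidence. The remaining member, Egr2, was listed at 0 counts in all 30 libraries. Rims1, a presynaptic gene, was listed with 21 counts in all, so such listings are not read as absence.

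Upstream sequence of members is shown because activity and cAMP act on some of these promoters through the cAMP response element, whose half-site is TGACG. RefSeq (GRCm38.p6) promoters were matched by symbol for 21 of the 28 genes. Within 250 bases before the start, 14 of these (66.7%) held TGACG on either strand, against 19.8% of 27025 genes. The 14 include Homer1 and Klf4, which lay above 0 over both classes. Fosl2, Egr1 and Arc, which lay below 0, are not among them. The genes without a matched promoter are not named here, so this is not read as lack of the half-site. Whether the half-site goes with the stress difference was not tested. The AP-1 motif TGANTCA was in 0 of 21 (all genes 7.82%), and the serum response element in 2 of 21 (9.52%, all genes 1.62%). A TGACG match is never itself a match of TGANTCA, and a match is a description of the letters only. The stretches below hold half-sites of 4 of the 14 members with a match, in capitals as TGACG or, on the other strand, CGTCA. They read in the direction of the gene and lie at chr15:101266596-101266795 (plus strand) for Nr4a1, chr4:48045055-48045182 (plus) for Nr4a3, chr6:85513674-85513786 (minus) for Egr4 and chr12:85473741-85473848 (plus) for Fos. The Nr4a1 stretch, cut at 200 bases, precedes a RefSeq start that lies inside the gene span given further below.
Nr4a1: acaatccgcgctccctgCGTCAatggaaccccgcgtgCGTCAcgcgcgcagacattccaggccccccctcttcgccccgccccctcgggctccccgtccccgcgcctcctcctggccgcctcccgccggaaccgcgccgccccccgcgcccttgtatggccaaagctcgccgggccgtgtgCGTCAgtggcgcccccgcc
Nr4a3: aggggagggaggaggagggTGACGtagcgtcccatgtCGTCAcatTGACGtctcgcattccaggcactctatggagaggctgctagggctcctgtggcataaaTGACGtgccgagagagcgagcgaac
Egr4: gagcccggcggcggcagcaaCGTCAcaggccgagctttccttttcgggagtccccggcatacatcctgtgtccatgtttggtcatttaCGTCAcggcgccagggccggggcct
Fos: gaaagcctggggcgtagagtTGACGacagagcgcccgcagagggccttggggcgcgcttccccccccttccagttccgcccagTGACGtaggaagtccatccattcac

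Among the AP-1 factors, which pair FOS and JUN proteins on DNA, Fosl2 (chr5:32135801-32157842, plus strand, GRCm38) had nearly the same value in each class. It ran from 45.4 to 73.0 CPM in Control (median 56.2) and from 33.6 to 62.3 CPM in stressed libraries (median 45.0). Of the stressed libraries, 8 of 10 in D1 and 10 of 10 in D2 lay below their class Control median, and the ranges overlap. The log2 difference of Fosl2 was -0.33 (SE 0.0788, unadjusted p 0.000184, edgeR adjusted p rounding to 1), with -0.33 in D1 and -0.33 in D2. Fos, the founding member, had 7.24 to 31.0 CPM in Control (median 11.5) and 4.34 to 16.8 CPM in stressed libraries (median 10.4). All 10 D1 stressed libraries lay below the D1 Control median of Fos and 6 of 10 in D2 below theirs, and the log2 difference was -0.78 in D1 and -0.18 in D2. Junb ran from 65.5 to 111 CPM in Control and 38.1 to 100.4 CPM in stress, at a log2 difference of -0.29 (SE 0.126). Fosb was at -0.17 (SE 0.134), and Jun, at 0.05 (SE 0.126), turned below 0 without D2 Control replicate 5, by voom and with Resilient libraries alone.

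Of the EGR zinc finger factors, Egr1 and Egr4 were lower in every stressed group. Egr1 ran from 276 to 433 CPM in Control (median 354) and 197 to 352 CPM in stress (median 292). All 20 stressed libraries lay below their class Control median, with a log2 difference of -0.23 (SE 0.0696, unadjusted p 0.00197). Egr4 ran from 34.6 to 63.3 CPM in Control and 16.0 to 58.7 CPM in stress, at -0.31 (SE 0.114). Egr3 was at -0.18 in D1 and 0.13 in D2, and its value over both classes, -0.03, turned above 0 without D1 Control replicate 4 or 5 and with Susceptible libraries alone.

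All 3 members of the NR4A family of orphan nuclear receptors lay below 0 in both classes. Nr4a1 (chr15:101254269-101274795, plus strand) ran from 63.6 to 139 CPM in Control (median 101) and 33.2 to 104 CPM in stressed libraries (median 73.6). All 20 stressed libraries lay below their class Control median, and the log2 difference was -0.46 (SE 0.136, unadjusted p 0.00205), with -0.71 in D1 and -0.19 in D2. Nr4a3 had 30.4 to 56.1 CPM in D1 Control and 20.4 to 42.7 CPM in D1 stress, and 19.2 to 29.1 against 11.9 to 29.3 CPM in D2. Its log2 differences were close, -0.35 in D1 and -0.37 in D2. Nr4a2 was at -0.54 (SE 0.184), and at -0.33 without D2 Control replicate 5, whose 36.5 CPM stood above the 10.6 to 16.7 CPM of the other D2 Control libraries.

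Synaptic effectors and signalling regulators followed with smaller or class-dependent values. Arc, which acts on AMPA receptor traffic at synapses, had 20.9 to 88.1 CPM in Control (median 55.3) and 18.6 to 59.2 CPM in stress (median 39.7). All 10 D1 stressed libraries and 8 of 10 in D2 were below their class Control median for Arc, at -0.70 in D1 and -0.24 in D2. Nptx2, a secreted pentraxin of excitatory synapses, was at -0.23 (SE 0.0754). The ERK phosphatase genes Dusp5 and Dusp6 were both at -0.24, and Dusp6 was at -0.42 in D1 and -0.07 in D2. Klf10 was at -0.44 in D1 and -0.07 in D2. Btg2, an antiproliferative cofactor, had -0.76 (SE 0.164) in D1 and 0.06 in D2 (difference between classes p 0.00158, adjusted p rounding to 1). It is the 1 member whose D1 stressed libraries all lay below D1 Control, as 9 of all genes (0.0465%) did, and in a fit of the D1 libraries alone it passed (edgeR adjusted p 0.00488). Klf4 at 0.41 (SE 0.335) and Homer1 at 0.02 (SE 0.146) were, with Jun, the members above 0, and Klf4 turned below 0 by voom and with Resilient libraries alone. The whole list stood at 1323 to 2040 summed CPM in Control and 1156 to 1463 in stress for D1, and 1522 to 1939 against 1499 to 1998 for D2.

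**Figure D3:**
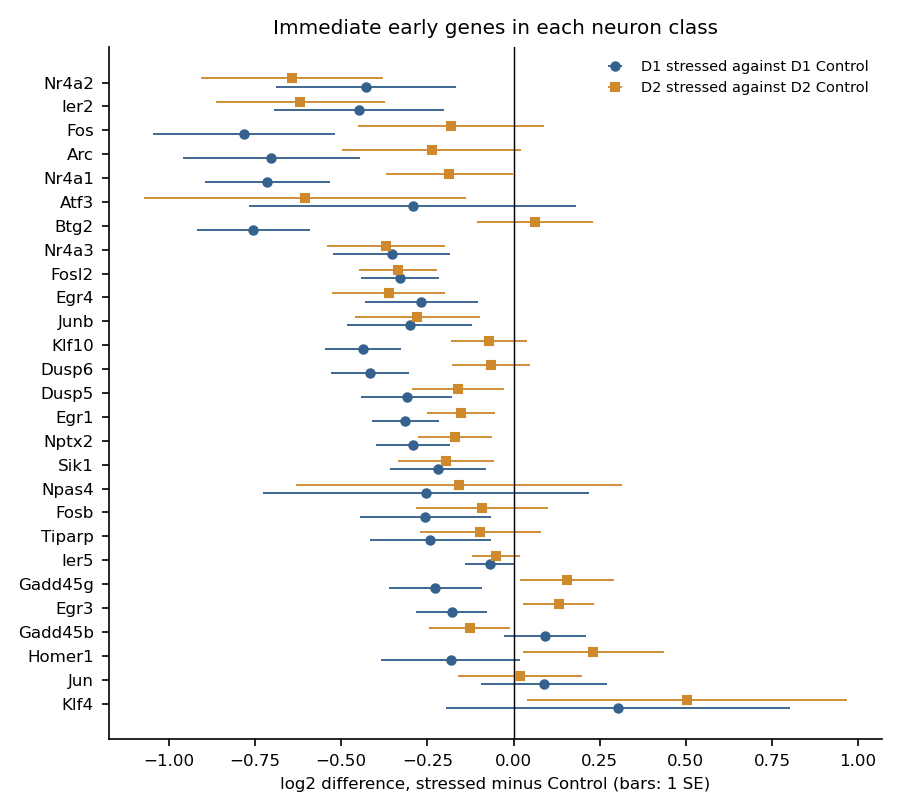
Log2 difference of stressed minus Control libraries (x axis) for the 27 immediate early genes tested (y axis, ordered by the value over both classes), circles for D1 and squares for D2, with bars of 1 SE. For Fosl2, Nr4a3, Junb and Egr4 the points of the classes lie near each other, and Btg2, Fos, Arc and Nr4a1 lie lower in D1 than in D2.

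Markers of other cell types also lay below 0 in places, and the part this has in the list was not tested. All 10 oligodendrocyte, all 10 astrocyte and all 9 tested microglial markers had log2 differences below 0, with medians in D1 of -0.45, -0.44 and -0.41 and in D2 of -0.03, 0.02 and -0.04. Their summed levels overlapped: oligodendrocyte markers had 539 to 1102 CPM in D1 Control and 405 to 714 in D1 stress, and 691 to 1475 against 467 to 1959 in D2. Astrocyte markers had 362 to 830 against 286 to 674 CPM in D1 and 518 to 784 against 336 to 765 in D2. Microglial markers had 28.1 to 86.7 against 27.6 to 43.5 CPM in D1 and 30.3 to 74.2 against 37.0 to 82.8 in D2. Trem2 was the microglial marker not tested, with 38 counts in all. Agt, an astrocyte marker, was at 0 counts in D2 Susceptible replicate 1. The glial medians over both classes, -0.24 for oligodendrocytes, -0.19 for astrocytes and -0.23 for microglia, rest on D1 Control replicate 1. Without it they were -0.08, 0.08 and 0.17. The immediate early median without that library was -0.26, and whether glial content bears on it was not tested. The genes of smallest p that voom passed within D1 included the oligodendrocyte gene Ermn. Leaving out 4 stressed libraries that stand apart gave 24 of 27 immediate early genes below 0 and a median of -0.23, beside the -0.24 above. D1 Control replicate 1 stays in that fit, so it cannot address the glial values.

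Neuronal markers from outside the medium spiny class lay mostly below 0 in both classes, with values that depend on 1 Control library. For interneurons 8 of 10 markers lay below 0 (80%, against 51.3% of all genes), at a median of -0.29 (D1 -0.16, D2 -0.41). Of the markers, 4 (40%) had an unadjusted p under 0.05, all lower, against 1.64% of all genes in that direction. These were Vip (-0.73), Npy (-0.40), Kit (-0.41) and Sst (-0.42), of which Vip, Npy and Sst are peptides of GABAergic interneurons. Without D2 Control replicate 5, Vip was at -0.40, Npy at -0.20, Sst at -0.19 and the median of the list at -0.16. Summed, the interneuron markers had 368 to 527 CPM in D1 Control and 330 to 498 in D1 stress, and 112 to 318 against 82.8 to 229.6 in D2. All 10 markers of cortical and other glutamatergic neurons lay below 0, led by Slc17a7, a vesicular glutamate transporter, at -0.29 (SE 0.136). Their median was -0.23, and -0.14 without D2 Control replicate 5. Their sums were 774 to 1041 against 562 to 917 CPM in D1 and 387 to 620 against 197 to 550 in D2. edgeR passed 0 markers of either list.

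Neuropeptide genes, of which several are among those interneuron markers, lay below 0 for 20 of 22 tested (90.9%, against 51.3% of all genes), at a median of -0.17. An unadjusted p under 0.05 was reached by 5 (22.7%), all lower, against 1.64% of all genes in that direction. Cck had 133 to 167 CPM in D1 Control and 106 to 150 in D1 stress, and 69.2 to 150 against 31.5 to 102 in D2, at a log2 difference of -0.39 (SE 0.137). Chga, a granin of dense-core vesicles, was at -0.18 (SE 0.0644), and Vip, Npy and Sst were the other 3. Without D2 Control replicate 5, Cck was at -0.29 and the list median at -0.12, and Vip, Npy and Sst had the smaller differences given above. Penk, at 0.18, and Gal were the members above 0. Over both classes the fit passed 0 of these genes, and DESeq2 and voom also passed 0.

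Genes ranked highest among those above 0 in all 4 stressed groups carried small values. They were named by rule, and none passed the test. Slc41a1 (chr1:131827493-131848865, plus strand), a magnesium transporter, ran from 25.2 to 44.4 CPM in Control (median 32.4) and 31.3 to 49.9 CPM in stress (median 37.3). All 10 D1 stressed libraries and 8 of 10 in D2 were above their class Control median, and the log2 difference was 0.27 (SE 0.0667, unadjusted p 0.000323). Spata13 had 77.8 to 113 CPM in Control and 84.2 to 142 CPM in stress, at 0.18 in D1 and 0.20 in D2. Ano2, a calcium-activated chloride channel, was at 0.27 in D1 and 0.33 in D2, with 9 of 10 stressed libraries above the Control median in each class. Ppp1r9a, which encodes the actin-binding protein neurabin, had 322 to 557 CPM in Control and 411 to 1078 CPM in stress, at 0.31 (SE 0.0945). Its highest counts, 50195 and 49298, were in D2 Susceptible replicates 1 and 2. The value was 0.25 without D2 Susceptible replicate 1 and 0.18 at the lowest of the other alternatives. Bhlhe41, a clock repressor, was at 0.18 in D1 and 0.15 in D2, again with 9 of 10 stressed libraries above the Control median in each class. The others of this kind were AW146154 (0.38) and Zfp566 (0.42), zinc finger genes, Ankrd33b (0.18), Asb11 (0.34) and Mxd1 (0.17), a MYC antagonist. The D1 stressed libraries of Ankrd33b all lay above D1 Control, as did those of 3 genes in all (0.0155%).

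Among genes below 0 in all 4 stressed groups, Nrn1, Nefh and Ly6e followed Fosl2 with moderate levels. Nrn1, whose product neuritin is an activity-regulated membrane protein, had 30.8 to 60.1 CPM in D1 Control and 18.7 to 31.5 in D1 stress, and 6.95 to 25.1 against 6.70 to 14.5 in D2. Its log2 difference was -0.55 (SE 0.143, unadjusted p 0.000469), and 19 of the 20 stressed libraries lay below their class Control median. Without D2 Control replicate 5 the value over both classes was -0.425. That library had 1749 counts of Nrn1, against 399 to 831 in the other D2 Control libraries and 382 to 984 in D2 stress. Nefh, the heavy neurofilament chain, was at -0.18 in D1 and -0.21 in D2. Ly6e, a surface protein anchored by lipid, was at -0.22 in D1 and -0.25 in D2, and the same 19 of 20 count held for it. Il17ra, the interleukin-17 receptor, was at -0.39 (SE 0.114), and Rprm, a gene induced by p53, at -0.30 (SE 0.0912). Nacc2 (-0.28) and Rims4 (-0.18), a presynaptic scaffold gene, complete those at a moderate level. Pwwp2b (-1.58) and Tmem254c (-2.22) rest on 1 library each: 240 counts of Pwwp2b in D1 Control replicate 1, without which it was at -0.79, and 203 of Tmem254c in D2 Control replicate 4, without which it was at -1.37. The same holds for Rpl7a-ps11 (-2.85 over both classes), at -0.105 without D2 Control replicate 1.

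**Figure D4:**
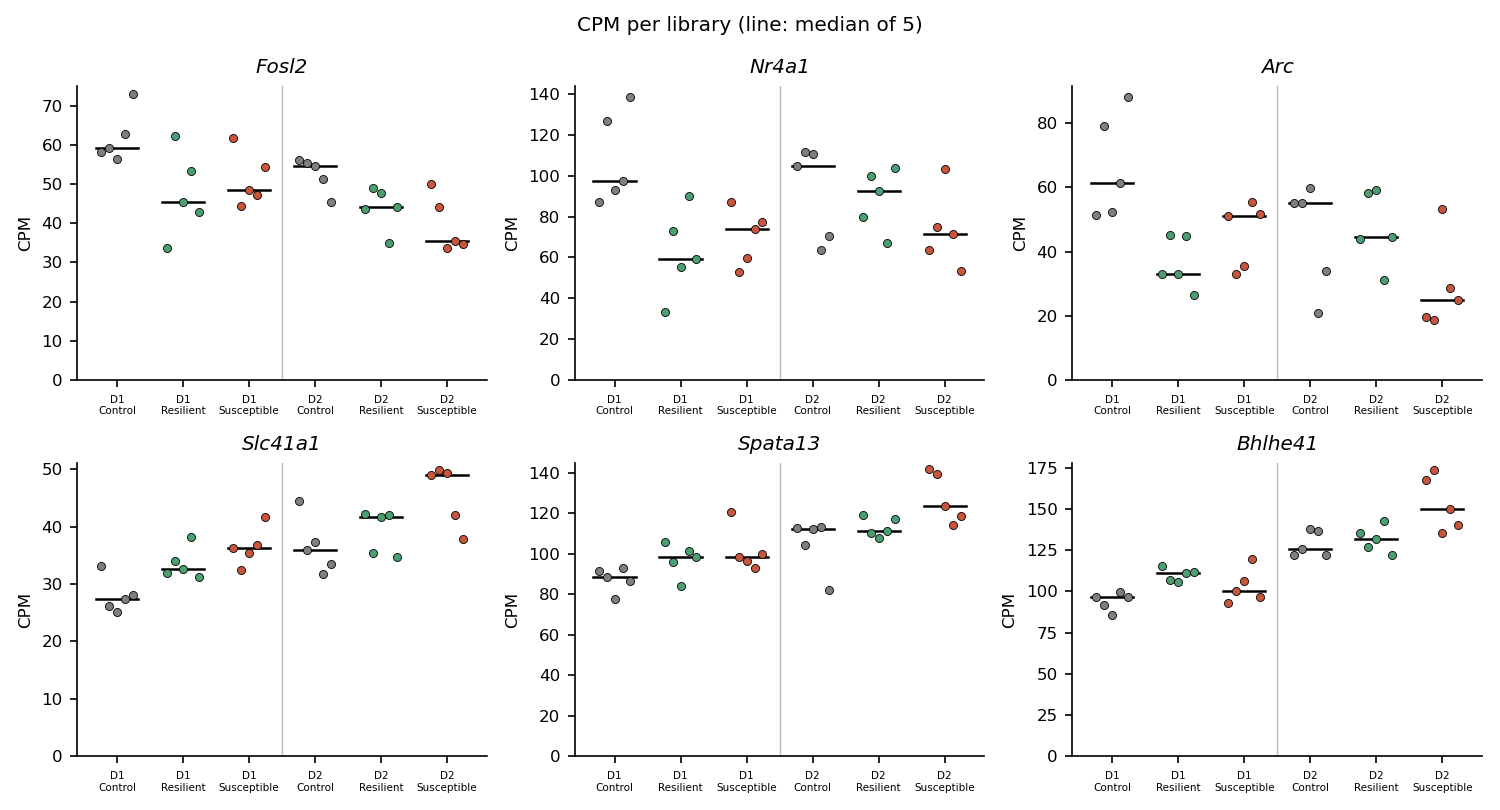
CPM per library (y axis, from 0) for 3 immediate early genes (upper row) and 3 genes ranked among the higher ones (lower row), by class and group on the x axis; points are libraries and lines are medians of 5. Within a class, the Control libraries overlap the 10 stressed ones in every panel, and the stressed medians of Fosl2, Nr4a1 and Arc lie below the Control median in both classes.

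A test of the difference between the D1 and D2 responses passed 0 genes in edgeR (0%), with 766 (3.95%) at an unadjusted p under 0.05 (1.89% with D1 above D2 and 2.07% with D1 below D2) and a smallest adjusted p of 0.887. DESeq2 passed 2, Btc and Gm14308, and voom 1, Clk1. The genes of smallest p were named by rule. Mfn1, which drives mitochondrial fusion, was at -0.16 in D1 and 0.17 in D2, a difference of -0.33 (p 0.000555). Taf1b, a factor of RNA polymerase I, was at -0.18 in D1 and 0.45 in D2 (p 0.000333). Its D2 stressed libraries all lay above D2 Control, as did those of 10 genes (0.0516%). Slc9a4, a sodium-proton exchanger, had 0 to 11 counts in D2 Control and 0 to 1 in D2 stress, and 9 to 17 in D1 Control against 1 to 60 in D1 stress. Slc30a1, a zinc exporter, rests on few libraries, with 3606 counts in D2 Control replicate 3 and 2537 and 1834 in D1 Resilient replicates 3 and 4. Fam25c rests on low counts, with 0 to 16 in D1 Control and 0 to 3 in D1 stress. In D2 it had 0 in every Control library and 0 to 201 in stress. Its difference was -11.3, and -9.17 without D2 Susceptible replicate 2, which held the 201.

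Among lists of stress biology, clock genes lay mostly above 0 and chaperones mostly below. Over both classes, 0 members passed in edgeR, DESeq2 or voom. Of 20 clock genes 14 lay above 0, at a median of 0.06, where 9439 of all 19368 genes lay above 0. The median was 0.04 to 0.09 with each library left out, and by group 0.01 and 0.0009 for Resilient and 0.06 and 0.14 for Susceptible libraries of D1 and D2. An unadjusted p under 0.05 in the higher direction was reached by 5 members, against 1.19% of all genes. They were Bhlhe41, Dbp (0.19, SE 0.0759), Tef (0.13), Per3 (0.17) and Nr1d2 (0.15), of which Dbp and Tef are PAR-bZIP factors driven by the clock. Glucocorticoid targets, which respond to the stress hormone corticosterone, stood at 14 of 23 above 0 and a median of 0.03. Fkbp5, a co-chaperone of the glucocorticoid receptor, had 62.9 ± 8.89 CPM (SD, n = 10) in Control and 68.5 ± 6.84 CPM (n = 20) in stress, at 0.13 (SE 0.0503, unadjusted p 0.0156). Klf15 was at 0.27 (SE 0.110), and the other 21 genes had an unadjusted p of at least 0.05. Of heat shock and chaperone genes 18 of 25 lay below 0, with Hspa8 at -0.17 (SE 0.0663) and Ahsa1 at -0.10. The integrated stress response had 16 of 20 below 0, with Phgdh, of serine synthesis, at -0.56 (SE 0.253), and at -0.23 without D1 Control replicate 1, and Ppp1r15a, an eIF2 phosphatase subunit, at 0.22 (SE 0.0914).

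Cholesterol synthesis genes were below 0 for 20 of 22 (90.9%, against 51.3% of all genes), at a median of -0.08. The median was -0.07 in D1 and -0.01 in D2, and 10 members lay below 0 in both (45.5%, against 24.4% of all genes). Cyp51, a demethylase of the pathway, was at -0.26 in D1 and -0.12 in D2 (-0.19 over both, SE 0.0564). Hmgcs1, which makes HMG-CoA, was at -0.26 in D1 and 0.01 in D2, and Sqle, the squalene epoxidase, at -0.14 (SE 0.0669). edgeR, DESeq2 and voom passed 0 of them over both classes, and the genes of smallest p that voom passed within D1 included Hmgcs1.

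**Figure D5:**
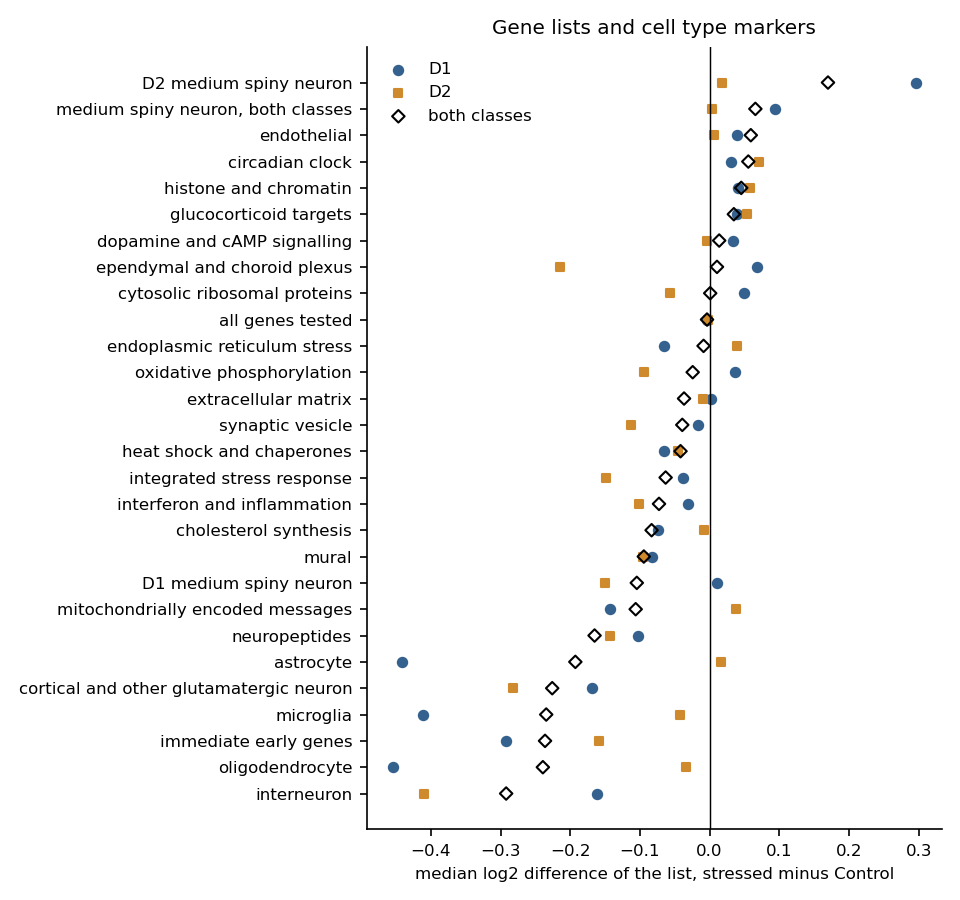
Median log2 difference of stressed minus Control libraries (x axis) for each gene list and set of cell type markers (y axis, ordered by the value over both classes), circles for D1, squares for D2 and open diamonds for both classes together. Immediate early genes lie at -0.29 in D1 and -0.16 in D2, and glial markers lie at -0.45 to -0.41 in D1 and at -0.04 to 0.02 in D2; epidermal markers, at 0.91, are not drawn.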

How the data were processed

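Reads were counted per gene with HTSeq after alignment with HISAT2 on GRCm38 (mm10), as far as the submitters' processing notes name tools and builds. No version, annotation release or strand setting is given in the sources used here, which leaves the counts of overlapping genes on opposite strands uncertain. The deposited values are raw counts of 55335 genes, without normalization, identical in the series table and the 30 library files. The 5 summary lines of unassigned reads, 10.1% to 53.3% of a library, stayed out of library sizes and tests. Identifiers were matched to GENCODE M21 symbols (55154 matched, 181 not).

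Groups came from the sample titles. filterByExpr (minimum count 10, minimum total 15) kept 19368 genes. Counts were tested in R 4.3.3 with edgeR 4.0.16, the quasi-likelihood test with robust dispersion and TMM scaling (biological coefficient of variation 43.5%), with class and stress as terms. A second model added their interaction, for D1, D2 and their difference. The larger of the D1 and D2 p-values of a gene with 1 sign in both tested the same direction. Adjustment was by Benjamini-Hochberg at 0.05, and the script was tested on simulated data. CPM use TMM-scaled library sizes. A count of 0 allowed up to 3 counts, 0.0430 to 0.304 CPM. The labels call the libraries biological replicates of pooled mice.

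Named were genes passing the test, then genes of smallest p up to 10 in each direction among those with 1 sign in all 4 stressed groups, up to 6 in each direction by the same-direction p, up to 3 by the difference between classes, and up to 4 of each list. Only unique symbols qualified, and Gm and Rik names did not. Beyond this rule all immediate early genes were described, and Nr1d2, Penk, Gal, Rims1 and genes that passed in an alternative were named after their values were seen. The members and lists were chosen with earlier results of these data known. Alternatives were DESeq2 1.42.0, its size factors in edgeR, no filter, a replicate block, voom with quality weights (limma 3.58.1), 1 surrogate variable (sva 3.50.0), 6 groups as terms, Resilient or Susceptible libraries only, 1 class only, leaving out 2 or 4 libraries, and leaving out each library in turn. The 2 libraries are D2 Susceptible replicates 1 and 2, and the 4 add D1 Susceptible replicate 1 and D2 Resilient replicate 5. Gpr52, a D2 marker, was not analysed here, and the sequence of AC123659.1 is not reported here. Figures were drawn with matplotlib 3.10.9.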

Additional observations from a re-analysis of the deposited data

Results flagged for a closer look

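Within the 6 groups of 5 libraries, 120 sets of values were examined for a library far from the other 4 (Dixon's ratio above 0.71), and 8 stood out. Chance gives about 1 in 20, which is close to this number. For AC123659.1, D2 Control replicate 3 had 8.82 CPM against 0.0143 to 0.706 in the other D2 Control libraries. D1 Resilient replicate 2 had 0.426 CPM of it against 0 to 0.0369, and D2 Susceptible replicate 5 had 0.0588 CPM against 0. Nr4a2 was at 36.5 CPM in D2 Control replicate 5 and at 10.6 to 16.7 CPM in the other D2 Control libraries. Spata13 was at 82.2 CPM in D2 Control replicate 5 against 104 to 113, and at 120 CPM in D1 Susceptible replicate 1 against 93.1 to 100.1. Junb was at 100.1 CPM in D1 Susceptible replicate 4 against 60.2 to 70.9, and Egr1 at 352 CPM in D2 Susceptible replicate 2 against 274 to 293. The log2 difference of Spata13 without D2 Control replicate 5 was 0.16, beside 0.19 with it.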

How the results depend on the processing

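The stress comparison over both classes passed 1 gene under DESeq2, DESeq2 size factors, no filter, voom and 6 groups as terms. It passed 0 genes with a replicate block, 1 surrogate variable, 2 or 4 libraries left out, or Resilient or Susceptible libraries only, and 0 to 1 with each library left out in turn. AC123659.1 had log2 -5.31 (adjusted p 1) with the replicate block, -3.05 by voom, -5.11 with the surrogate variable, -5.44 and -5.41 without 2 and 4 libraries, and -4.94 with Resilient libraries only; the cause was not tested. The D1 to D2 difference went from 0 to 2 genes under DESeq2 and 1 under voom. D1 went from 0 to 46 genes under voom and 1 with D1 libraries only. D2 went from 1 to 4 genes under DESeq2, to 1 with DESeq2 size factors, and to 0 with no filter, the replicate block, voom, the surrogate variable, 2 or 4 libraries left out, or D2 libraries only. Leaving out 1 library gave 0 to 2 in D2, with 0 without D2 Control replicate 1, D2 Resilient replicates 2 to 5 or any D2 Susceptible replicate, and 2 without D1 Susceptible replicate 4 or D2 Control replicate 5. Same-direction calls were 0 throughout. The median of the immediate early genes ran from -0.31 (voom) to -0.19 (without D1 Control replicate 5), with 22 to 27 of 27 below 0.

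Among genes named, signs turned for Klf4, at 0.41, and for values near 0. Jun was at -0.0332 by voom and -0.105 with Resilient libraries only, and at -0.0138 to 0.0997 in leave-one-out fits. Egr3 was at 0.0259 with Susceptible libraries only and at -0.058 to 0.019 with each library left out. Homer1 was at -0.0154 with the replicate block, -0.157 by voom, -0.133 with the surrogate variable, -0.139 and -0.143 without 2 and 4 libraries, -0.183 with Resilient libraries only, and -0.0798 to 0.081 in leave-one-out fits. Klf4 was at -0.119 by voom and -0.273 with Resilient libraries only. Gadd45b was at 0.0263 without 4 libraries, 0.00127 with Resilient libraries only and -0.0486 to 0.024 in leave-one-out fits, where Gadd45g ran from -0.0717 to 0.00349. Fosl2 passed under voom (log2 -0.415, adjusted p 0.0451). Replicate numbers do not pair the libraries: of 75 pairs with the same number 10 correlated above 0.1, with a median of -0.02, and 4 of 30 libraries correlated best with their own number. Genes with few counts, and differences below the biological variation of 43.5%, are limited by 5 libraries a group.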

Other observations

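Genes of energy metabolism and translation had list medians near 0 whose sign differed between groups. The median of 75 oxidative phosphorylation genes was 0.04 in D1 and -0.09 in D2. In both classes 20 (26.7%) lay below 0 and 9 (12%) above 0, against 24.4% and 23% of all genes. By group the median was 0.12 and -0.18 for Resilient and -0.03 and -0.07 for Susceptible libraries of D1 and D2. Uqcrfs1, a complex III subunit, was at -0.12 over both classes (SE 0.0402, unadjusted p 0.00411), Sdhb, of complex II, at -0.17 and Ndufb5, of complex I, at -0.09. The 79 cytosolic ribosomal protein genes had medians of 0.05 in D1 and -0.06 in D2, or 0.12 and -0.16 for Resilient and -0.03 and 0.05 for Susceptible libraries, with Rpl10 at -0.14, Rpl6 at -0.14 and Rps27 at 0.20. edgeR passed 0 genes of either list, and 3 of 75 and 3 of 79 had an unadjusted p under 0.05, near the 2.83% of all genes. The difference between the classes was not tested for a list.

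Histone and chromatin genes lay above 0 for 27 of 36, at a median of 0.05, with 0.04 in D1 and 0.06 in D2, and 0 had an unadjusted p under 0.05. By group their median was -0.005 and -0.05 for Resilient and 0.06 and 0.15 for Susceptible libraries of D1 and D2. It was 0.02 without D2 Susceptible replicate 2, and ran from -0.03 to 0.11 under the other alternatives. Interferon and inflammation genes lay below 0 for 17 of 20, at a median of -0.07, also with 0 at that level, and of -0.15 without D1 Susceptible replicate 4. Of the synaptic vesicle genes 17 of 25 lay below 0, with Syp at -0.13 and Syn1 at -0.15. In dopamine and cAMP signalling 20 of 32 lay above 0, and Akap5, an anchor of protein kinase A, was at 0.12 and Arpp19 at 0.15. Dsp, a desmosome gene among the epidermal markers, had 1496 and 2015 counts in D2 Susceptible replicates 1 and 2 and 0 to 34 in the other libraries. Those are the libraries with the fewest genes detected, and the part this has in the result was not tested.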
